A study of Mus musculus with 12 samples.

Results

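Macrophages of gut and joint were followed through 36 genes in bulk RNA of the ileum and of the synovium, the membrane that lines joints. The genes were chosen by name for what is known of them, out of 46603 genes in the count table. No threshold on these data was used, but earlier results of these data were known when the genes were chosen. They comprise 4 genes of tissue-resident macrophages (Vsig4, Timd4, Lyve1, Folr2), 4 genes of monocytes and monocyte-derived macrophages (Ly6c2, Plac8, Gpnmb, Cd9) and 28 genes of macrophage identity, lysosomes, membrane proteins and activation. The samples fall into 4 groups of 3 biological replicates: ileum of TNFdARE mice, ileum of WT mice, ankle synovium of TNFdARE mice and ankle synovium of WT mice. TNFdARE mice carry a germline Tnf allele without the AU-rich element that shortens the life of Tnf mRNA, in every cell type, and WT mice are their littermates. The labels give no treatment, age or sex, and do not say that both tissues came from the same animals. Library totals ran from 14267834 to 16224402 counts.

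The targeted gene followed the labels in each of the 12 libraries. Levels are given as CPM, the usual count unit corrected for library size, after TMM scaling over the 12 libraries. Tnf stood at 82.8, 17.2 and 47.4 CPM in TNFdARE ileum replicates 1, 2 and 3 and at 1.39 to 2.63 CPM in WT ileum. In the synovium it stood at 28.3 to 38.4 CPM in TNFdARE mice and 1.89 to 2.15 CPM in WT mice. TNFdARE ileum replicate 2 was the TNFdARE library with the lowest Tnf, and also the one closest to WT ileum for Adgre1, Cd68, Aif1 and Spi1. Values are listed below in the order of replicates 1, 2 and 3. The log2 fold changes are TNFdARE over WT, and ± follows them with the standard error. That error was derived from the edgeR test, as the absolute log2 fold change over the square root of the F statistic.

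Resident macrophages settle in a tissue and largely maintain themselves there, while monocyte-derived macrophages come from blood monocytes that express Ly6C and mature after they enter tissue. In the joint, a lining layer of resident macrophages that carry the complement receptor VSIG4 faces the joint space, and LYVE1- and FOLR2-positive macrophages lie in the sublining near vessels. In the gut wall most macrophages are known to be replaced from monocytes, with a smaller self-maintaining population that carries TIM4. Adgre1 (F4/80), Cd68 and the transcription factor Spi1 (PU.1) mark macrophages of either origin. In bulk tissue, fewer cells of a type and less RNA per cell cannot be told apart.

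PU.1 is known to bind sequences with a GGAA core, and the promoter windows that hold the 8-letter sequence GAGGAAGT, or ACTTCCTC on the other strand, are shown because Spi1 is itself among the 36 genes. RefSeq windows of 300 bases (250 before to 50 after the start, GRCm38.p6) were at hand for 24 of the 36 genes, as 28 windows. The sequence stood in 5 of these 28 windows and in 3.20% of all 32851 windows. The 5 belong to Slamf9, Ctss, Cd53 and Ly6c2, the last with overlapping windows. That makes 4 of 24 genes (16.7%), a share of genes and not of windows. One stretch for each of these genes follows, 5′ to 3′ on the gene's strand, with the 8 letters in capitals.
Slamf9, chr1:172475316-172475389, plus strand: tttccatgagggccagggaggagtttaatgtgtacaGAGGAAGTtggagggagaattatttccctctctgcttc
Ctss, chr3:95526748-95526815, plus strand: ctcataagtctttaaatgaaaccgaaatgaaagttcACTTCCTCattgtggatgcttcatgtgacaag
Cd53, chr3:106790120-106790179, minus strand: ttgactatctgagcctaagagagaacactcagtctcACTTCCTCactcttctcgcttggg
Ly6c2, chr15:75112036-75112115, minus strand: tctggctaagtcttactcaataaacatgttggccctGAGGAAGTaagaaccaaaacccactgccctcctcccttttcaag
The 8 letters begin 8 bases before the start in Slamf9, 2 bases before it in Ctss and 108 bases before it in the Ly6c2 window shown, and in Cd53 they lie just after the start. Ly6c2 has a pair of overlapping windows with different starts: the match shown lies 142 bases before the start of the other, and a second match, not shown, lies 8 bases before that start and just after the first one. A match of letters is a description and says nothing about binding.

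More of these genes rose than fell in TNFdARE mice in both tissues. In the synovium 21 of 36 rose and 3 fell, while 13.1% of all 15599 genes tested rose and 10.7% fell. The 3 that fell were Vsig4, Lyve1 and Cst3. The median log2 fold change of the 36 genes was 0.78, against 0.00 over all genes tested. In the ileum 12 of the 35 genes that passed the filter on low counts rose and none fell, where 4.12% of all 15462 genes tested rose and 1.57% fell; Vsig4 was the gene not tested. The median of the 35 was 1.50. As the genes were chosen with earlier results of these data known, these shares describe them and are no test of enrichment. A gene is said to rise or fall where its adjusted p of the edgeR quasi-likelihood F test was under 0.05, with adjustment over all genes tested.

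10 genes rose in both tissues, namely Aif1, Spi1, Ms4a7, Ms4a6c, Ms4a4a, Cd52, Myo1f, Cd48, Slamf9 and Slc15a3. All 3 TNFdARE libraries lay above all 3 WT libraries for 25 of 36 genes in the ileum and for 23 of 36 in the synovium, where 19.3% and 23.2% of all genes tested did so. The ileum calls depended on single libraries. No gene of the 36 was called by edgeR in the ileum without TNFdARE replicate 3 or without any 1 of the 3 WT replicates, although 23 to 26 then had an unadjusted p under 0.05, 3 were called without TNFdARE replicate 1, and 27 without TNFdARE replicate 2. Of those 27, 26 rose and Maf fell (-0.86, adjusted p = 0.0050). DESeq2 called 26 of the 36 in the ileum with all 6 libraries, of which 24 rose and 2 fell, namely Maf (-0.71, adjusted p = 0.0025) and Plac8 (-0.40, adjusted p = 0.035). In the synovium between 21 and 24 genes were called whichever library was left out. With the spread of all 12 libraries 17 were called there: Vsig4, Cd68, Aif1, Spi1, Ms4a6c, Laptm5, Cd52, Cd53 and Myo1f did not pass, and Timd4 and Cd9 did.

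**Figure D1:**
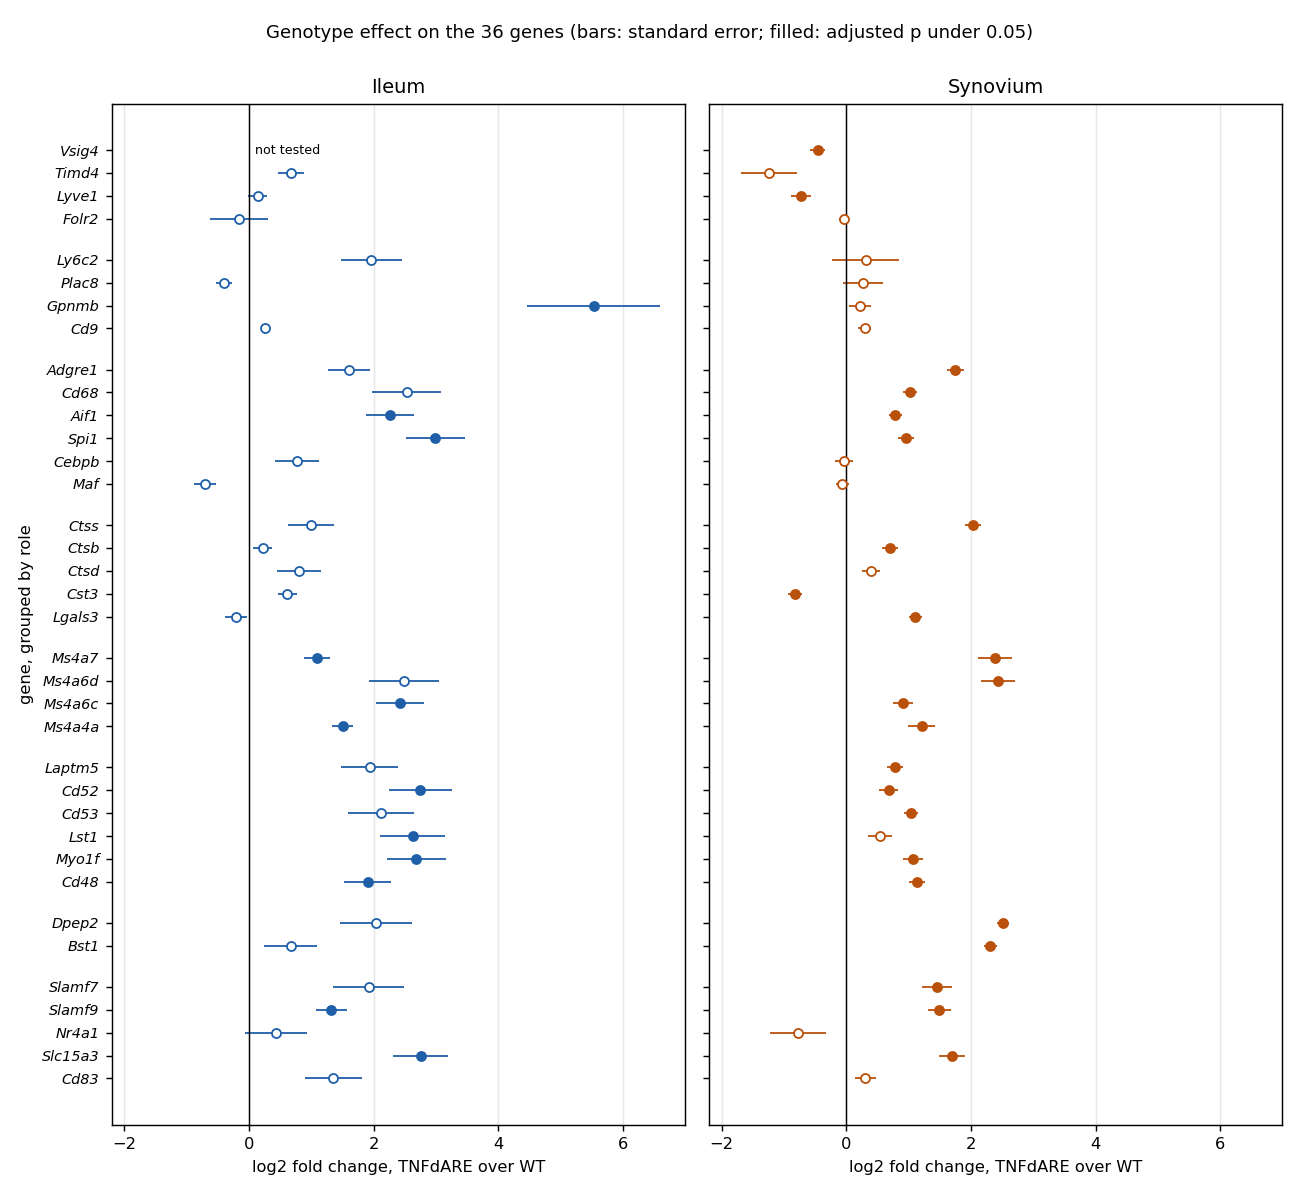
Genotype effect on each of the 36 genes in the ileum (left) and the synovium (right), as log2 fold change of TNFdARE over WT (x axis) by gene, grouped by role (y axis). Bars are standard errors and filled points have an adjusted p under 0.05; in the synovium Vsig4, Lyve1 and Cst3 are the 3 filled points left of 0, and in the ileum no filled point lies left of 0.

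Of the 4 resident macrophage genes among the 36, 2 fell in the synovium and none rose, with a median log2 fold change of -0.59. Of the other 32 genes 21 rose, 1 fell and the median was 0.94. A separate list of 14 further resident genes, given below, differed: 7 rose and 1 fell in the synovium, with a median of 0.41. Vsig4 (X: 96247203 to 96293438, GRCm38), the complement receptor of lining macrophages, stood at 32.9, 26.8 and 25.2 CPM in TNFdARE synovium and at 39.3, 36.5 and 43.2 CPM in WT synovium. Every TNFdARE value lay below every WT value, and the log2 fold change was -0.46 ± 0.12 (adjusted p = 0.031). Lyve1 (7: 110850607 to 110863239), a hyaluronan receptor of perivascular macrophages and of lymphatic endothelium, stood at 71.0, 62.7 and 59.1 CPM against 119, 81.6 and 124 CPM, and its log2 fold change was -0.72 ± 0.17 (adjusted p = 0.023). WT replicate 2 was the lowest of the WT libraries and still lay above the 3 TNFdARE libraries.

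The calls of Vsig4 and Lyve1 in the synovium were lost without TNFdARE replicate 2, TNFdARE replicate 3, WT replicate 1 or WT replicate 3. Vsig4 then lay between -0.48 and -0.38 on the log2 scale, with adjusted p up to 0.103, and Lyve1 between -0.71 and -0.61, with adjusted p up to 0.084. With the spread taken from all 12 libraries the adjusted p of Vsig4 was 0.077. Of the 5 genes of lymphatic endothelium tested, Pdpn rose (log2 fold change 2.03) and none fell. The sum over the list of 6, Pdpn included, was 332, 246 and 277 CPM in TNFdARE synovium against 157, 181 and 201 CPM in WT. Its more specific members Prox1, Flt4 and Mmrn1 had log2 fold changes of 0.56, 0.02 and 0.45, and Reln had -0.05. None of these 4 passed, and Ccl21a had no count in any library. The part of lymphatic endothelium in the level of Lyve1 was not tested.

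Timd4 (11: 46810800 to 46844332), the phosphatidylserine receptor TIM4 that takes up dying cells, stood at 1.32, 4.84 and 1.91 CPM in TNFdARE synovium and at 6.17, 6.77 and 6.53 CPM in WT synovium. The groups did not overlap, yet TNFdARE replicate 2 lay far above the other 2 TNFdARE libraries, and the log2 fold change of -1.23 ± 0.45 did not pass (adjusted p = 0.090). Without that library it was -1.97 and passed (adjusted p = 0.0044). With all 6 libraries it passed with the replicate number as a block (-1.38, adjusted p = 0.027), with DESeq2 (adjusted p = 0.028) and with the spread of all 12 libraries (adjusted p = 0.035). These levels rest on 22 to 104 counts a library. Folr2 (7: 101839988 to 101857194), folate receptor beta, differed from its resident companions: it stood at 29.6, 26.8 and 27.4 CPM in TNFdARE synovium and at 28.0, 29.0 and 30.8 CPM in WT synovium. Its groups overlapped, with a log2 fold change of -0.04 ± 0.08 (adjusted p = 0.78).

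None of the resident genes passed the test in the ileum, and the levels of Vsig4, Timd4 and Folr2 there were low. Vsig4 had 0 counts in the 3 TNFdARE ileum libraries, which allows up to 0.210 CPM before TMM in the library with the fewest counts, and 1 count in WT ileum replicate 3. Timd4 stood at 2.73, 2.61 and 3.23 CPM in TNFdARE ileum and 1.87, 1.61 and 1.90 CPM in WT ileum. This was the opposite order to the synovium, and the log2 fold change was 0.67 ± 0.21 (adjusted p = 0.093). Lyve1 stood at 33.5, 24.4 and 24.9 CPM against 26.6, 26.1 and 23.0 CPM, with overlap (log2 fold change 0.14 ± 0.15, adjusted p = 0.56). Folr2 stayed under 1.4 CPM in each ileum library, with 7 to 20 counts and a log2 fold change of -0.16 ± 0.47 (adjusted p = 0.84). An antisense gene, Gm10602, overlaps 63.1% of the exonic length of Folr2. It had 1 to 7 counts in the ileum libraries and 6 to 13 in the synovium libraries, and the strand setting of the counting is not given.

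**Figure D2:**
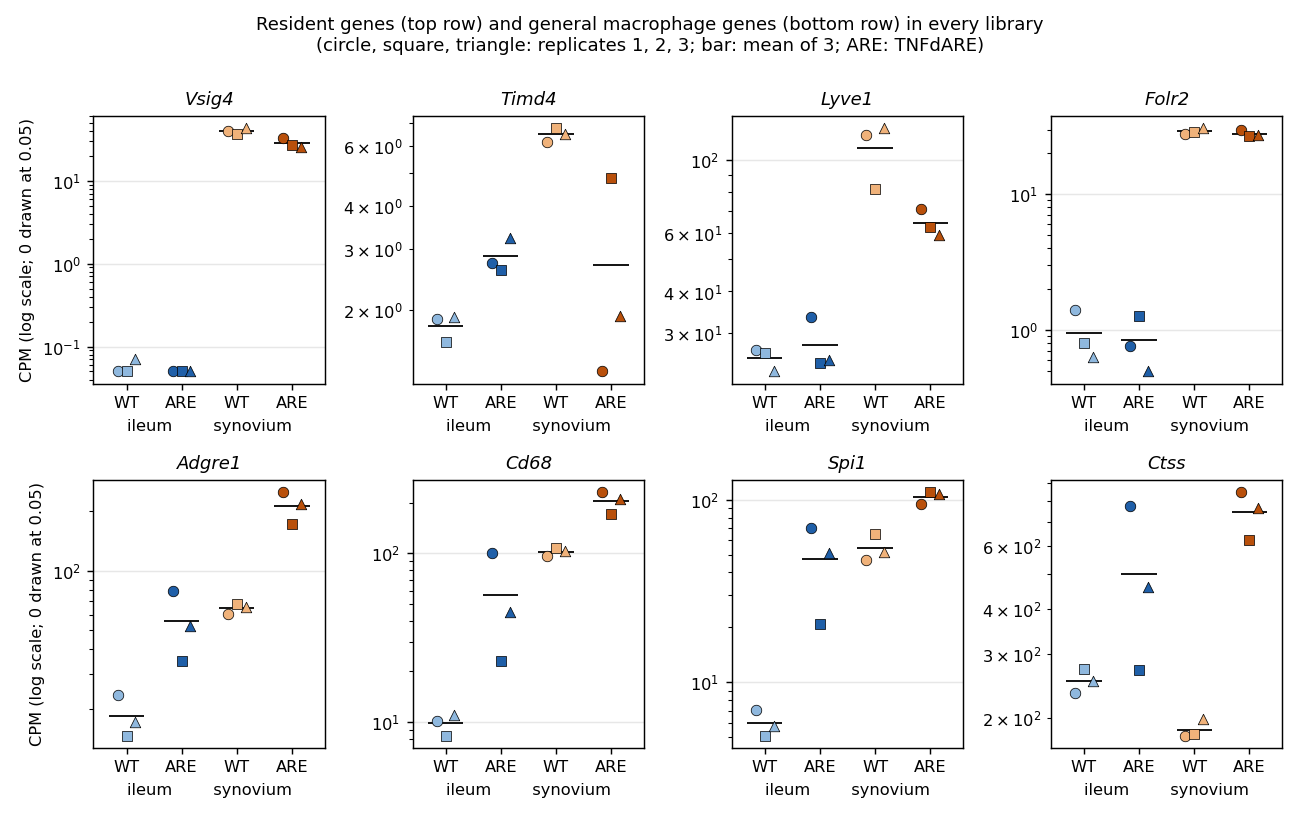
CPM on a log scale (y axis) of 4 resident genes (top row) and 4 general macrophage genes (bottom row) in the 12 libraries by tissue and genotype (x axis; ARE stands for TNFdARE); symbols are replicates, bars are group means, and values of 0 are drawn at 0.05. In the synovium the TNFdARE points lie below the WT points for Vsig4, Timd4 and Lyve1 and above them for Adgre1, Cd68, Spi1 and Ctss.

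Set against Adgre1 in the same library, counts of the resident genes, and of some monocyte genes, were a smaller fraction in TNFdARE mice. These ratios are not corrected for gene length, so they compare genotypes and not genes. The synovium held 13.4 ± 1.96 Vsig4 counts (SD, n = 3) per 100 Adgre1 counts in TNFdARE mice and 61.5 ± 6.79 in WT mice. For Timd4 the figures were 1.40 ± 1.22 and 10.03 ± 0.12, for Lyve1 30.6 ± 4.95 and 169 ± 42.4, and for Folr2 13.3 ± 1.94 and 45.2 ± 2.33. The ratios were lower in TNFdARE ileum too, at 5.68 ± 2.03 against 10.03 ± 1.77 for Timd4. They were 53.1 ± 14.4 against 142 ± 33.3 for Lyve1 and 1.84 ± 1.54 against 5.04 ± 1.18 for Folr2. In each of these 7 ratios of resident genes the groups did not overlap, with p = 0.1 by a two-sided exact permutation test, the smallest value that 3 against 3 allows, and 0.11 after adjustment over the 26 ratios computed. Lower ratios to Adgre1 were not limited to resident genes. In the synovium Plac8 stood at 26.7 ± 13.2 against 69.4 ± 18.0 and Gpnmb at 39.5 ± 8.01 against 113 ± 9.07, and in the ileum Plac8 stood at 1202 ± 407 against 4557 ± 1155, each without overlap and with the same p. Gpnmb in the ileum ran the other way (110 ± 81.7 against 8.92 ± 1.91), and the groups of Ly6c2 overlapped in both tissues. The 26 ratios include those to Spi1, which rose in both tissues. Set against Spi1, the 7 resident ratios were lower without overlap too. On the log2 scale they fell by less in the synovium and by more in the ileum. Vsig4 stood at 27.5 ± 6.23 against 74.6 ± 16.0 in the synovium. Ly6c2 to Spi1 did not overlap in the ileum (41.0 ± 10.6 against 82.1 ± 21.8) and overlapped in the synovium. Adgre1 itself rose in the synovium, as described below, so the ratio of Folr2 to Adgre1 separated the genotypes there although the level of Folr2 did not. In the ileum Adgre1 was higher as well, with means of 55.6 CPM in TNFdARE and 18.4 CPM in WT mice, without passing. The level of Timd4 lay higher in TNFdARE ileum, with means of 2.86 against 1.79 CPM, so its lower ratio was not a lower level.

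**Figure D3:**
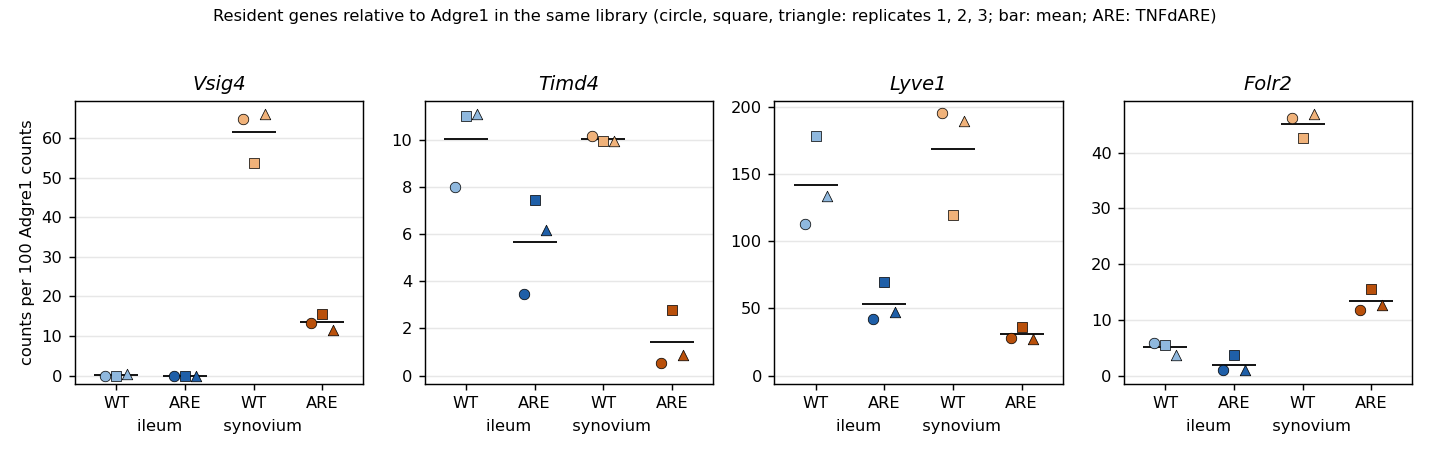
Counts of Vsig4, Timd4, Lyve1 and Folr2 per 100 Adgre1 counts of the same library (y axis, linear) by tissue and genotype (x axis; ARE stands for TNFdARE); symbols are replicates and bars are means. In the synovium all TNFdARE points lie below all WT points in the 4 panels, as at 13.4 against 61.5 for the means of Vsig4.

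Genes of monocytes and monocyte-derived macrophages split by gene and by tissue: 1 of 4 rose in the ileum, and none passed in the synovium. Gpnmb (6: 49036546 to 49070929), a transmembrane glycoprotein of lipid-laden macrophages and of osteoclasts, stood at 155, 11.4 and 53.2 CPM in TNFdARE ileum and at 1.59, 1.53 and 1.62 CPM in WT ileum. Every TNFdARE library lay above the WT libraries, with a mean of 73.1 ± 73.7 CPM (SD, n = 3) against 1.58 ± 0.04 CPM, and the log2 fold change was 5.53 ± 1.07 (adjusted p = 0.046). In the synovium Gpnmb stood at 106, 79.1 and 66.3 CPM in TNFdARE mice and 65.0, 73.9 and 80.9 CPM in WT mice, with overlap (log2 fold change 0.22 ± 0.17, adjusted p = 0.40). TNFdARE ileum replicate 1 thus lay above the 6 synovium libraries, while replicates 2 and 3 lay below them. Osteoclast genes, which share Gpnmb, summed to 414, 261 and 363 CPM in TNFdARE ileum and 148 to 157 CPM in WT ileum, and 2 of the 4 tested rose there (Mmp9, which neutrophils also make, and Ocstamp); their part in the result was not tested.

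Ly6c2 (15: 75108158 to 75111970), the surface protein of classical monocytes, stood at 32.2, 10.1 and 14.7 CPM in TNFdARE ileum and 6.10, 5.19 and 3.38 CPM in WT ileum. The groups did not overlap, and the log2 fold change was 1.96 ± 0.49 (adjusted p = 0.065). With the replicate block it was 1.85 and passed (adjusted p = 0.042). In the synovium Ly6c2 stood at 24.9, 89.6 and 45.5 CPM in TNFdARE mice and 31.1, 67.1 and 33.8 CPM in WT mice. Replicate 2 was the highest in both genotypes, and the log2 fold change of 0.31 ± 0.54 (adjusted p = 0.72) turned to -0.29 without TNFdARE replicate 2. Reads that fit both Ly6c2 and its near copy Ly6c1 could be split by the counting, so the Ly6c2 level is uncertain.

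Plac8 (5: 100553725 to 100572245), a small cysteine-rich protein of monocytes that other cells also make, stood at 588, 532 and 706 CPM in TNFdARE ileum and 822, 846 and 748 CPM in WT ileum. The TNFdARE libraries lay below the WT libraries (log2 fold change -0.40 ± 0.13, adjusted p = 0.096). Epithelial genes summed to 10284, 12849 and 11228 CPM in TNFdARE ileum and 15262, 14243 and 13951 CPM in WT ileum, in the same order, and their part in Plac8 was not tested. In the synovium Plac8 stood at 36.1, 70.3 and 54.3 CPM against 31.3, 59.6 and 45.3 CPM, where each TNFdARE library lay above the WT library of the same number. The groups overlapped (log2 fold change 0.27 ± 0.32, adjusted p = 0.59), and with the replicate block the same log2 fold change, 0.27, passed (adjusted p = 0.032). Cd9, a tetraspanin of many cell types, stood at 161, 167 and 164 CPM against 137, 138 and 137 CPM in the ileum and at 523, 542 and 440 CPM against 438, 399 and 416 CPM in the synovium. Neither difference passed (log2 fold change 0.26 ± 0.06, adjusted p = 0.052, and 0.29 ± 0.10, adjusted p = 0.070).

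Ly6c2 and Plac8 followed the order of neutrophil genes across the synovium libraries, and Gpnmb and Cd9 did not. The summed level of 10 neutrophil genes was 1400, 5560 and 2528 CPM in TNFdARE synovium and 1433, 4611 and 2317 CPM in WT synovium, so that replicate 2 was the highest and replicate 1 the lowest in both genotypes, as for Ly6c2 and Plac8. None of the 10 changed in the synovium, where all had counts. In the ileum the same sum was 450, 78.3 and 252 CPM in TNFdARE mice and 6.79 to 11.6 CPM in WT mice, and 4 of the 6 tested rose; Ngp had no count there. Ly6c2, Gpnmb and the neutrophil sum were all highest in replicate 1 and lowest in replicate 2 of TNFdARE ileum. The part of neutrophils in the levels of Ly6c2 and Plac8, which they can share, was not tested.

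**Figure D4:**
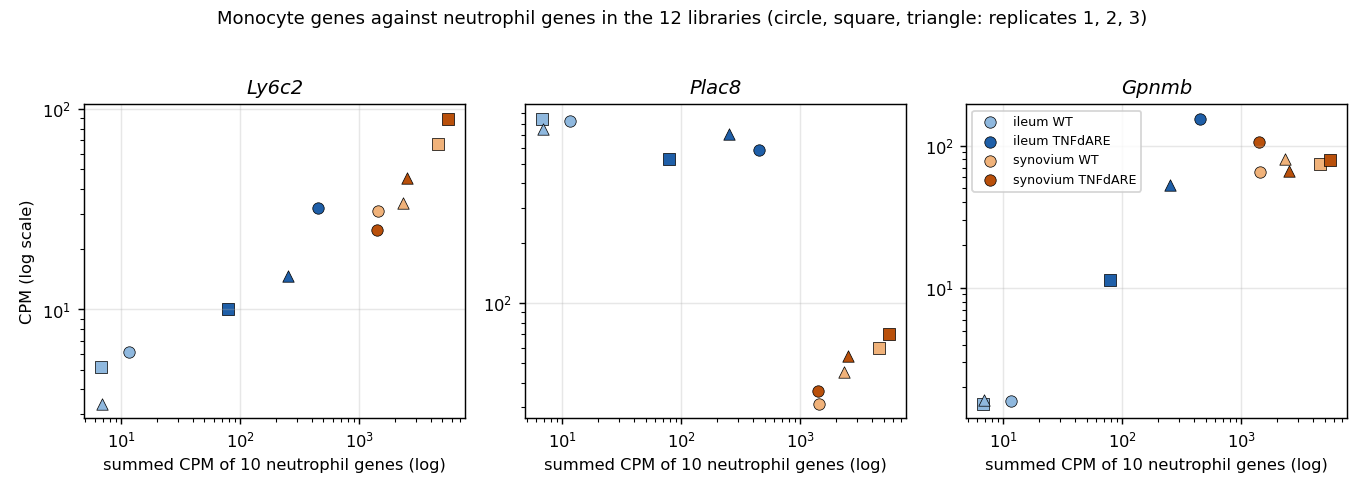
CPM of Ly6c2, Plac8 and Gpnmb (y axes, log scale) against the summed CPM of 10 neutrophil genes (x axes, log scale) in the 12 libraries; colours are the 4 groups and symbols the replicates. In the synovium Ly6c2 and Plac8 are highest in replicate 2 of both genotypes, where the neutrophil sums of 5560 and 4611 CPM are highest as well.

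Among the identity genes and transcription factors, 4 of 6 rose in the synovium and 2 of 6 in the ileum, and none fell. Adgre1, which encodes the adhesion receptor F4/80, stood at 250, 173 and 217 CPM in TNFdARE synovium and 60.7, 68.1 and 65.5 CPM in WT synovium. The lowest TNFdARE library was well above the highest WT library, and the log2 fold change was 1.75 ± 0.13 (adjusted p = 5e-04). In the ileum Adgre1 stood at 79.2, 35.1 and 52.4 CPM against 23.4, 14.6 and 17.1 CPM. The groups did not overlap there either, the log2 fold change was 1.60 ± 0.34 (adjusted p = 0.052), and with the replicate block it was 1.55 and passed (adjusted p = 0.011).

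Spi1, the gene of the factor PU.1 that directs myeloid development, stood at 70.3, 20.9 and 50.9 CPM in TNFdARE ileum and 7.07, 5.11 and 5.77 CPM in WT ileum, with 2.99 ± 0.47 as log2 fold change (adjusted p = 0.040). Synovium values were 95.004, 110 and 108 CPM against 46.9, 65.1 and 51.5 CPM (log2 fold change 0.96 ± 0.13, adjusted p = 0.0034). The TNFdARE libraries lay above the WT libraries in both tissues. Cd68, a lysosomal glycoprotein, and Aif1, the actin-binding protein IBA1, rose in the synovium by log2 fold changes of 1.03 ± 0.11 and 0.79 ± 0.10, and Aif1 also in the ileum (2.26 ± 0.38), while Cd68 did not pass there (2.53 ± 0.56, adjusted p = 0.054). Cebpb, a factor of monocytes and of inflammatory genes, did not pass in either tissue (0.77 and -0.04). Neither did Maf, a factor of macrophage self-renewal and of T cells, with -0.71 ± 0.17 in the ileum (adjusted p = 0.059) and -0.06 ± 0.10 in the synovium. Maf and Plac8 were the genes of the 36 whose TNFdARE libraries all lay below the WT libraries in the ileum.

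Among 5 genes of lysosomal proteases, their inhibitor and galectin-3, 3 rose in the synovium and 1, the inhibitor gene Cst3, fell. None of the 5 passed in the ileum. Ctss, a protease that prepares peptides for MHC class II, stood at 846, 624 and 766 CPM in TNFdARE synovium and 178, 180 and 198 CPM in WT synovium. All TNFdARE values lay above all WT values, at 2.04 ± 0.13 on the log2 scale (adjusted p = 0.00025). In the ileum Ctss stood at 776, 271 and 461 CPM against 235, 273 and 252 CPM, where TNFdARE replicate 2 fell within the WT range (log2 fold change 0.99 ± 0.37, adjusted p = 0.14).

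Cst3, which encodes cystatin C, a secreted inhibitor of cysteine cathepsins such as cathepsin S, went the other way in the synovium. It stood at 776, 846 and 661 CPM in TNFdARE synovium and 1489, 1333 and 1296 CPM in WT synovium, which gave -0.82 ± 0.12 on the log2 scale (adjusted p = 0.0037). In the ileum it stood at 205, 136 and 187 CPM against 116, 109 and 121 CPM (log2 fold change 0.61 ± 0.15, adjusted p = 0.062), and with the replicate block 0.59 passed (adjusted p = 0.048). Fibroblasts and many other cells make cystatin C too. Among 8 fibroblast genes, 2 rose and 1, Prg4, fell in the synovium, and their sum was 44614 to 48655 CPM in TNFdARE mice and 53969 to 91834 CPM in WT mice; their part in the result was not tested. Lgals3 (galectin-3) and Ctsb (cathepsin B) rose in the synovium by 1.11 ± 0.11 and 0.70 ± 0.13, against -0.21 and 0.22 in the ileum, which did not pass. Ctsd (cathepsin D) passed in neither tissue (0.80 in the ileum and 0.40 in the synovium, adjusted p = 0.082); 34.4% of its exonic length is shared with Gm49369 on the same strand.

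The MS4A genes, membrane proteins with 4-pass topology that macrophages express, rose together: all 4 in the synovium and 3 of 4 in the ileum. They lie within 284 kb of chromosome 19 (11321039 to 11604849). Ms4a6d stood at 84.1, 45.8 and 81.2 CPM in TNFdARE synovium and 10.7, 13.4 and 15.5 CPM in WT synovium, which gave 2.44 ± 0.27 on the log2 scale (adjusted p = 0.0026). In the ileum it stood at 43.9, 10.7 and 24.7 CPM against 5.20, 3.14 and 5.84 CPM, and its 2.49 ± 0.56 did not pass (adjusted p = 0.055). Leaving out TNFdARE replicate 2 gave 2.87 (adjusted p = 0.0027) and the replicate block 2.34 (adjusted p = 0.025), which both passed. Its TNFdARE libraries lay above the WT libraries in both tissues.

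Ms4a4a stood at 16.0, 12.8 and 15.8 CPM in TNFdARE ileum and 6.17, 4.67 and 4.93 CPM in WT ileum, for which the test gave 1.50 ± 0.17 (adjusted p = 0.039). The 3 TNFdARE ileum libraries lay closer together for Ms4a4a than for Ms4a6d, with an SD of 1.81 CPM around a mean of 14.8 CPM. In the synovium it rose by 1.21 ± 0.21. Ms4a6c stood at 83.3, 28.6 and 57.8 CPM against 10.1, 10.4 and 11.3 CPM in the ileum (2.42 ± 0.39, adjusted p = 0.040) and at 60.5, 55.8 and 72.2 CPM against 27.1, 40.8 and 34.3 CPM in the synovium (0.91 ± 0.17, adjusted p = 0.011). Ms4a7 rose by 1.09 ± 0.22 in the ileum and 2.39 ± 0.27 in the synovium. Reads that fit more than 1 of the near-identical Ms4a6 genes could be split by the counting, and 53.1% of the exonic length of Ms4a6c is shared with BE692007 on the opposite strand.

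Leukocyte membrane and cytoskeletal genes, which are not particular to macrophages, rose in 5 of 6 cases in the synovium and 4 of 6 in the ileum, and their TNFdARE libraries lay above the WT libraries for all 6 in both tissues. Myo1f, a leukocyte myosin, stood at 144, 40.1 and 83.9 CPM in TNFdARE ileum and 15.8, 12.1 and 13.9 CPM in WT ileum (log2 fold change 2.68 ± 0.48, adjusted p = 0.043). Cd48, a ligand of the SLAM family, stood at 40.7, 38.5 and 42.7 CPM in TNFdARE synovium and 15.9, 22.1 and 18.3 CPM in WT synovium (1.14 ± 0.13, adjusted p = 0.0017). The groups of both genes were clear of each other in either tissue, with 1.07 ± 0.16 for Myo1f in the synovium and 1.90 ± 0.38 for Cd48 in the ileum.

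Cd52, a small surface glycoprotein of lymphocytes and myeloid cells, stood at 196, 49.9 and 122 CPM against 19.2, 15.3 and 20.4 CPM in the ileum (2.75 ± 0.50, adjusted p = 0.045). In the synovium it stood at 62.6, 87.1 and 73.7 CPM against 40.004, 52.7 and 49.4 CPM (0.68 ± 0.15, adjusted p = 0.020), and that call was lost without TNFdARE replicate 3 (0.69, adjusted p = 0.064) or WT replicate 3 (0.72, adjusted p = 0.058). Lst1, a gene of myeloid cells beside Tnf, rose in the ileum (2.63 ± 0.52, adjusted p = 0.046; 2.44 at 0.052 with the replicate block) and in the synovium passed with the block (0.55 at 0.030) and not without it (0.53 at 0.084). Laptm5, a lysosomal membrane protein, and the tetraspanin Cd53 rose in the synovium by 0.78 ± 0.12 and 1.04 ± 0.12. Their ileum values of 1.93 ± 0.45 and 2.12 ± 0.53 did not pass (adjusted p = 0.060 and 0.067). Both passed with the block (1.78 at an adjusted p of 0.042, and 1.93 at 0.048) and without TNFdARE replicate 2 (2.29 at 0.0032, and 2.52 at 0.0033). Aif1 and Lst1 lie 23.3 kb and 10.9 kb from the modified Tnf gene on chromosome 17, and an effect of the allele on its neighbours cannot be told apart from one through TNF.

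Lymphocyte genes stood higher in some TNFdARE ileum libraries as well. The sum of 8 B cell genes was 225, 16.4 and 61.4 CPM in TNFdARE ileum and 10.8 to 16.0 CPM in WT ileum, that of 8 T cell genes 208, 67.3 and 159 CPM against 60.5 to 85.2 CPM, and that of 8 dendritic cell genes 136, 59.6 and 115 CPM against 37.0 to 46.6 CPM. None of the 7 B cell and 8 T cell genes tested passed in the ileum, and 3 of 8 dendritic cell genes rose (Clec9a, Flt3, Zbtb46). Each of the 3 sums was highest in TNFdARE ileum replicate 1 and lowest in replicate 2, as were Spi1, Cd52, Myo1f and Ms4a6c. The part of these cells in the genes shared by leukocytes was not tested.

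The surface enzymes Dpep2 and Bst1 had the smallest adjusted p of the 36 genes in the synovium. Dpep2, a dipeptidase that acts on leukotrienes, stood at 70.1, 69.1 and 60.0 CPM in TNFdARE synovium and 11.3, 11.7 and 12.7 CPM in WT synovium, a log2 fold change of 2.51 ± 0.10 (adjusted p = 6.2e-05). Bst1 (CD157), an ectoenzyme that uses NAD and is found on myeloid and stromal cells, stood at 72.1, 69.0 and 69.4 CPM against 12.5, 14.7 and 16.0 CPM (2.31 ± 0.11, adjusted p = 8.5e-05). The replicates of both genes lay close together and the groups far apart. In the ileum Dpep2 stood at 16.6, 3.45 and 8.29 CPM against 2.29, 2.85 and 1.83 CPM (2.03 ± 0.57, adjusted p = 0.080). Bst1 stood there at 28.1, 13.5 and 20.9 CPM against 8.32, 10.3 and 20.8 CPM, where WT replicate 3 reached the TNFdARE range (0.67 ± 0.42, adjusted p = 0.33). A second gene identifier with the symbol Dpep2 covers 37.3% of the exonic length of the one reported.

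Among SLAM family and activation genes, 3 of 5 rose in the synovium and 2 of 5 in the ileum, and none fell. Slamf9, a receptor of the SLAM family, stood at 29.7, 34.6 and 25.9 CPM in TNFdARE synovium and 12.3, 8.14 and 12.2 CPM in WT synovium (1.50 ± 0.19, adjusted p = 0.0024). In the ileum it stood at 7.43, 5.64 and 6.75 CPM against 3.19, 2.85 and 1.90 CPM (1.32 ± 0.24, adjusted p = 0.041). Slc15a3, a lysosomal transporter of peptides and histidine, stood at 93.6, 30.4 and 69.4 CPM against 11.4, 7.52 and 9.79 CPM in the ileum (2.76 ± 0.44, adjusted p = 0.040) and at 65.1, 54.1 and 50.7 CPM against 13.03, 22.5 and 17.9 CPM in the synovium (1.70 ± 0.20, adjusted p = 0.0026). Both genes kept the groups apart in both tissues.

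Slamf7 rose in the synovium (1.46 ± 0.24) and did not pass in the ileum (1.92 ± 0.57, adjusted p = 0.092). Nr4a1, an early-response nuclear receptor that Ly6C-low monocytes need, passed in neither tissue (0.43 in the ileum, -0.78 ± 0.45 in the synovium). Within WT synovium it ranged from 66.6 to 216 CPM. Cd83, a surface protein of activated antigen-presenting cells, passed in neither tissue (1.35 and 0.31). Slamf7, Cd48 and Slamf9 lie on chromosome 1 between 171632403 and 172478575.

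The genotype effect differed between tissues for 12 of the 36 genes, tested as an interaction over the 12 libraries. It was more positive in the synovium for 3 genes, where 5.28% of all 16964 genes tested were called, and more negative for 9, where 6.8% were called. The 3 were Lgals3 (interaction 1.30 ± 0.22, adjusted p = 0.0066), Bst1 (1.62 ± 0.46, adjusted p = 0.044) and Ms4a7 (1.27 ± 0.37, adjusted p = 0.048). The 9 were Gpnmb (-5.33 ± 1.04, adjusted p = 0.012), Cst3 (-1.46 ± 0.21, adjusted p = 0.0030), Spi1, Cd52, Aif1, Lyve1, Lst1, Timd4 and Ms4a6c. The median interaction of the 36 was -0.80, against -0.08 over all genes tested. By library size alone, without TMM, 1 was called higher and 9 lower. Without ileum TNFdARE replicate 1 the median was -0.40, with 5 called higher and 4 lower.

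Of the resident genes, Lyve1 (-0.89 ± 0.24, adjusted p = 0.038) and Timd4 (-1.93 ± 0.54, adjusted p = 0.043) differed between tissues in their genotype effect. The fold changes of both were below 0 in the synovium and above 0 in the ileum, and of these 4 values the one of Lyve1 in the synovium passed its own test. For Spi1, Aif1, Cd52 and Ms4a6c the effect was positive and passed in both tissues and was larger in the ileum. The interactions of Gpnmb, Cst3 and Lgals3 passed whichever of the 12 libraries was left out. Those of the other 9 genes passed in 1 to 5 of these 12 fits. The number of genes called fell to as few as 3, without ileum TNFdARE replicate 3, ileum WT replicate 3, synovium TNFdARE replicate 3 or synovium WT replicate 3, and rose to 22 without ileum TNFdARE replicate 2; without the other libraries it was 4 to 9.

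In WT mice the synovium held more of most of these transcripts per library than the ileum: 28 of 36 genes were higher and 3 lower, where 38.2% of all genes were higher and 36% lower. All 4 resident genes were higher in WT synovium, by log2 fold changes of 1.85 ± 0.39 for Timd4, 2.10 ± 0.17 for Lyve1 and 4.94 ± 0.28 for Folr2. Vsig4 had 1790 counts in WT synovium and 1 in WT ileum, a ratio of their shares of 1857 (95% exact interval 333 to 73379, counting error only). In TNFdARE mice it had 1449 counts in the synovium and 0 in the ileum, at least 146.5-fold higher against a floor of 3 counts in each ileum library. Of the monocyte genes, Ly6c2 (3.17 ± 0.59), Gpnmb (5.53 ± 0.84) and Cd9 (1.60 ± 0.08) were higher in WT synovium and Plac8 was lower (-4.15 ± 0.29). Maf and Lgals3 were the other 2 lower genes, and Aif1, Bst1, Ctss, Ms4a7 and Slamf7 did not pass.

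In TNFdARE mice 22 of 36 genes were higher in the synovium and 3 lower (Aif1, Maf, Plac8), where 31.6% and 35% of all genes were. Of the 8 resident and monocyte genes, Vsig4, Lyve1, Folr2, Ly6c2 and Cd9 were higher in TNFdARE synovium than in TNFdARE ileum, Plac8 was lower, and Timd4 and Gpnmb did not pass. This comparison shares its libraries with the genotype effects, so it is not a separate line of evidence.

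The order of levels of different genes was taken per kilobase of exonic length. On that scale Cst3 ranked first of the 36 in both synovium groups, at 1084 CPM per kb in WT and 601 CPM per kb in TNFdARE, and Plac8 ranked first in both ileum groups, at 506 and 382 CPM per kb. Vsig4 ranked 14 of 36 in WT synovium (26.7 CPM per kb) and 25 in TNFdARE synovium (19.1 CPM per kb). Lyve1 went from rank 12 to 21, with 37.1 and 22.0 CPM per kb, and Folr2 from 17 to 27 with 18.9 and 18.1 CPM per kb. Timd4 was near the end of the order in both synovium groups, at 2.99 and 1.24 CPM per kb. Adgre1 went from rank 16 to 10, with 20.0 and 65.9 CPM per kb. Vsig4 stood above Adgre1 in the order of WT synovium and below it in that of TNFdARE synovium.

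Of 14 further genes of resident macrophages, 7 rose and 1 fell in the synovium, and in the ileum 5 of the 13 tested rose and none fell. Trem2, a lipid-sensing receptor, rose in the synovium by 1.58 ± 0.12 (adjusted p = 0.00051) and C1qc, a chain of complement C1q, by 1.24 ± 0.10 (adjusted p = 0.00064). In the ileum C1qc (1.98 ± 0.30) and Cx3cr1, the fractalkine receptor of gut macrophages (1.81 ± 0.30), rose with adjusted p = 0.040. F13a1, a coagulation factor subunit of perivascular macrophages, fell in the synovium (-0.55 ± 0.12, adjusted p = 0.019), from 444 to 523 CPM in WT mice to 273 to 365 CPM in TNFdARE mice. Monocytes also express F13a1, and Trem2 and the C1q genes are found in monocyte-derived macrophages as well.

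Of 16 further genes of monocytes and recruited macrophages, 7 rose in the synovium and none fell, and 5 of 15 rose and 1 fell in the ileum. Ccr2, the chemokine receptor by which monocytes leave the marrow, stood at 281, 263 and 281 CPM in TNFdARE synovium and 76.3, 80.05 and 68.6 CPM in WT synovium (1.90 ± 0.08, adjusted p = 6.5e-05). Lyz2, the lysozyme of myeloid cells, rose in the synovium by 1.97 ± 0.18 (adjusted p = 0.00079) and in the ileum by 4.21 ± 0.68 (adjusted p = 0.040). Ccr2 rose in the synovium while Ly6c2 did not pass there. Gda, a guanine deaminase, fell in the ileum (-1.02 ± 0.11, adjusted p = 0.039) and rose in the synovium (0.60 ± 0.12, adjusted p = 0.013).

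Growth factors, chemokines and receptors that support or attract macrophages rose in 8 of 8 cases in the synovium and in 5 of 7 in the ileum. Of all genes tested, 13.1% rose in the synovium and 4.12% in the ileum. Csf1r, Csf2ra and Csf2rb are the receptors in this list. Ccl2, the main ligand of CCR2, rose by 6.45 ± 0.38 in the synovium (adjusted p = 0.00053) and by 4.05 ± 0.54 in the ileum (adjusted p = 0.040). Csf1r, the receptor on which macrophages depend, rose by 1.14 ± 0.08 in the synovium (adjusted p = 0.00041), and Csf1, its ligand, by 1.88 ± 0.25 in the ileum (adjusted p = 0.039).

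Other tissues of the joint differed between the synovium groups as well. The summed level of 8 skeletal muscle genes was 6551, 3655 and 1630 CPM in TNFdARE synovium and 18188, 9497 and 10685 CPM in WT synovium, and 1 of the 8, Myh4, fell. Adipocyte genes fell in 8 of 8 cases, with sums of 886 to 1541 CPM against 2383 to 3069 CPM. None of 8 osteoclast genes passed there, with sums of 1931 to 2742 CPM against 2389 to 3123 CPM. The muscle and adipocyte sums lay lower in each TNFdARE library than in each WT library, as did Vsig4, Lyve1 and Cst3, while the osteoclast sums overlapped; their part in those results was not tested.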

How the data were processed

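RNA of 12 libraries was isolated with the RNeasy Micro kit, and stranded libraries of its poly-A fraction were sequenced as single reads, per the labels' protocols. Per the submitters' processing notes the tools and build included cutadapt 1.15, Bowtie2 2.3.3.1 and GRCm38. How reads were counted, with its tool, strand setting and treatment of multiple matches, is not given in the sources used here. Raw counts were deposited by the authors for 46603 Ensembl genes, of which 98.7% matched a GENCODE symbol of GRCm38, and 19236 had no count. Their FPKM table was not used here. One count was 0.062 to 0.070 CPM before TMM, and the floor of a gene without counts was set at 3 counts of a library. Intervals and floors cover counting error only.

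Each tissue was fitted on its 6 libraries with edgeR 4.0.16 in R 4.3.3 (filterByExpr, TMM, robust quasi-likelihood F test, two-sided, Benjamini-Hochberg over all genes tested, threshold 0.05). The 12 libraries in 4 groups gave the interaction and the tissue comparisons. The procedure was tested on simulated data. Ratios used exact permutation tests in scipy 1.17.1. The labels call the replicates biological, and p-values measure the spread between them.

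All 36 members are accounted for. Values per library are given for resident and monocyte genes and, in every other role, for the member with the smallest adjusted p in the ileum, the synovium and the interaction; from the further lists, the 2 with the smallest adjusted p per tissue. Ctss, Cd68 and other members are named besides. Members and lists were chosen with earlier results of these data known.

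Replicate numbers were checked as pairs by correlating deviations from group means over 10801 autosomal genes with a mean log2 CPM above 3. For libraries 1, 2 and 3 of TNFdARE and of WT, r with the same number was 0.233, 0.253 and 0.168 (ileum) and 0.485, 0.321 and 0.168 (synovium). With other numbers r lay between -0.275 and 0.155 (ileum) and between -0.463 and 0.183 (synovium). TNFdARE synovium replicate 3 correlated more with WT replicate 2 (0.183) than with WT replicate 3 (0.168), so the pairing of replicate 3 is uncertain. Blocked values are given within tissues where they change a call, and they rest on this pairing. Across tissues r lay between -0.121 and 0.147, so no pairing was assumed. Counts of replicates differed by a chi-square of 10.5 to 86.2 per gene, so each was counted as a library of its own. Alternatives were DESeq2 1.42.0, RLE factors, library size only, no filter, the replicate block, the spread of all 12 libraries, and leaving out each library.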

Additional observations from a re-analysis of the deposited data

Results flagged for a closer look

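For 12 of the 36 genes the genotype effect differed between tissues by the interaction test over the 12 libraries, given as the log2 fold change in the synovium minus that in the ileum. It was negative for 9 genes: Gpnmb (-5.33), Lst1 (-2.12), Cd52 (-2.09), Spi1 (-2.05), Timd4 (-1.93), Ms4a6c (-1.54), Aif1 (-1.50), Cst3 (-1.46) and Lyve1 (-0.89). It was positive for Bst1 (1.62), Lgals3 (1.30) and Ms4a7 (1.27). Gpnmb had the widest gap, between 5.53 in the ileum and 0.22 in the synovium. Cst3 passed its own test in the synovium (-0.82) and not in the ileum (0.61). Lgals3 stood at -0.21 in the ileum and 1.11 in the synovium. No group had the 4 samples that a check for outlying libraries needs.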

How the results depend on the processing

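The 12 genes called in the ileum became 26 with DESeq2, 24 with the spread of all 12 libraries and 3 without a filter, and 0 to 27 without 1 replicate; over all genes the 879 calls became 2686 with DESeq2, 2722 with all 12 libraries and 1379 by library size only, and 0 to 4633 without 1 replicate, when 3158 to 6546 genes had an unadjusted p under 0.05. The cause was not tested. In the synovium 24 genes were called, 17 with all 12 libraries and 21 to 24 without 1 replicate; over all genes 3713 calls became 2141 to 2927 without 1 replicate. For the interaction, the 12 genes called became 5 without a filter and 3 to 22 without 1 replicate, and the 2050 calls over all genes became 3173 with DESeq2 and 1015 to 3506 without 1 replicate. The 31 calls between WT tissues (29 to 33) and the 25 between TNFdARE tissues (20 to 27) moved less without 1 replicate.

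With the replicate block 17, 27 and 8 members were called in the ileum, the synovium and the interaction. Within tissues the block changed the calls named in the report and no other of the 36 genes. In the interaction, where numbers do not pair the tissues, calls were lost for Ms4a6c (-1.52, adjusted p = 0.064), Cd52 (-2.04, 0.051), Lst1 (-2.08, 0.063) and Bst1 (1.60, 0.050), and between TNFdARE tissues for Ly6c2 (1.39, 0.051).

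Changes of sign were limited to values that did not pass, each without 1 replicate: Lyve1 and Folr2 in the ileum (-0.019 to 0.23 and -0.56 to 0.22), and Folr2, Ly6c2, Cebpb and Maf in the synovium (-0.085 to 0.0041, -0.29 to 0.75, -0.13 to 0.11 and -0.16 to 0.034). By library size only, the median over all genes was 0.11 in the ileum, 0.17 between WT tissues and -0.15 in the interaction. Low counts limit Timd4 in both tissues and Vsig4 and Folr2 in the ileum.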
